A study of Drosophila melanogaster with 6 samples.

Results

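The transcriptome of adult astrocytes is described here from 4 of the 6 libraries of a count table of Drosophila melanogaster brain astrocytes, namely every library whose label gives the adult stage. The other 2 libraries came from larvae (L3) and are not used. RedStinger is a nuclear red fluorescent protein. Each adult library was made from a pool of 1000 cells sorted for DsRed from brains of flies carrying UAS-mCD8::GFP, Alrm-Gal4 and UAS-RedStinger, so all 4 libraries share both reporters and the driver, which follows the astrocyte gene alrm. The cells are thus those in which this driver was active. Flies had been reared at 25 °C, and adult brains were digested for 30 min at 29 °C with a mix of collagenase and dispase. The labels do not give the age or the sex of the adults, nor whether the pools came from separate animals, so the spread between libraries may be technical. Levels are given as CPM, the count of a symbol scaled to the total of its library in the usual way, and are not scaled to length because the libraries were made from the 3′ ends of polyadenylated RNA.

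Fly astrocytes are glia whose fine processes enter the synaptic neuropil. They take up glutamate and GABA through membrane transporters, turn glutamate into glutamine, buffer ions, and are coupled to other glia by gap junctions made of innexins. They carry the glial transcription factor Repo, and the leucine-rich repeat protein Alrm is one of their usual markers.

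The driver's gene ranked high. alrm was at 1628, 1362, 994 and 1236 CPM in libraries 1 to 4, a mean of 1305 ± 264 CPM (SD, n = 4), which placed it at rank 80 of 16666 symbols. Library 1 was highest and library 3 lowest, and none lacked the gene whose driver directed the sort. Of 10 astrocyte markers, 9 had counts in every library and 5 were in the top 300. Of all 16666 symbols, 6813 had counts in every library. The glial transcription factor gene repo was at 632 ± 83.6 CPM, rank 312, with counts identical to those of its table neighbour CG7156. Of 8 pan-glial markers, 1 (nrv2) was in the top 300, and 5 had a mean of at least 10 CPM. Counts in every library were found for 6 of the 8, and 1 had no adult count.

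The 4 libraries held 1197694, 745129, 912479 and 1287871 counts, and 1 count was worth 0.776 to 1.34 CPM. They detected 9541, 8542, 9024 and 10403 symbols, 6813 of them in all 4 and 11695 in any. No adult count was recorded for 4971 symbols, which at a floor of 3 counts over the 4 libraries allows a level of up to 0.724 CPM. These bounds cover counting error only.

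Abundance was steep. The 10 most abundant symbols took 16.4% ± 2.38 of the counts, the first 100 took 33.9% ± 1.75 and the first 300 took 51.1% ± 1.49 (SD, n = 4). The mean level was at least 1000 CPM for 147 symbols, between 100 and 1000 CPM for 1351 and between 10 and 100 CPM for 5494. The first 147 held 39.1% of all counts, and 5 symbols were enough to reach 10%.

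**Figure D1:**
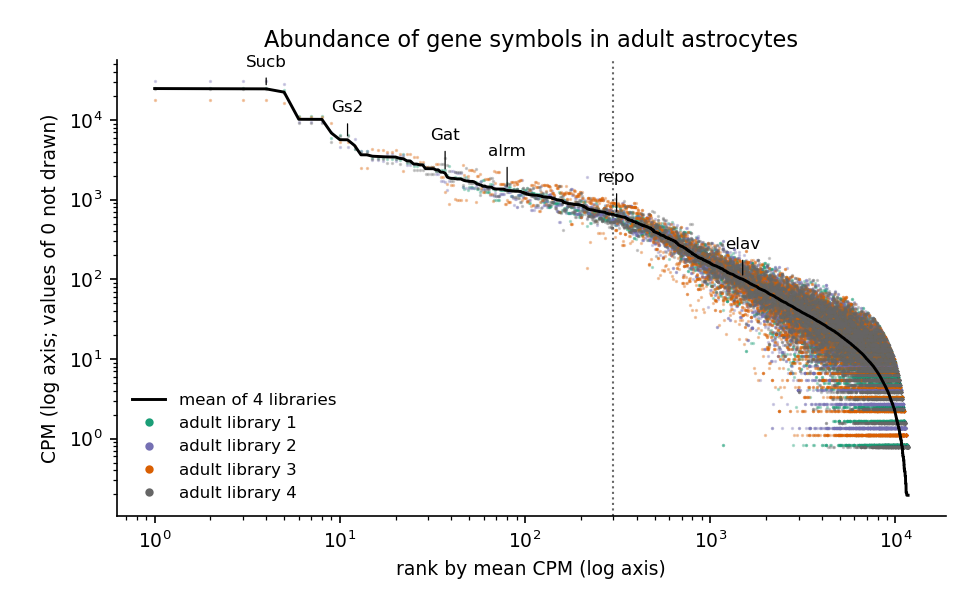
CPM of every symbol with adult counts against its rank by mean CPM, both on log axes, with a point per library, a line for the mean of 4 libraries and a dotted line at rank 300. Sucb stands on the plateau of the first 5 symbols, which form 1 group, alrm lies at rank 80, repo lies just past the dotted line at rank 312, and the neuronal gene elav lies at rank 1496.

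Symbols were not independent measurements, and this bears on every rank. Within 10 rows of the table, 233 of the top 300 symbols had a neighbour whose counts differed, over the 4 libraries, by under 5% of the sum of both. They formed 83 groups of up to 7 symbols, so the top 300 held 150 separate rows of counts, among them 67 single symbols. Over the whole table, 4959 of the 7933 symbols with at least 30 counts were in such groups. Rows that repeated a neighbour's counts held 47.4% to 49.1% of each library's total, so a symbol's CPM divides by a total in which like counts stand in several rows. Of 2817 linked pairs that could be placed on a gene annotation, 28.8% overlapped, 41.5% lay in tandem, 23.8% were convergent and 5.79% divergent. In such a group the counts cannot be given to 1 gene, and a level is written for the group.

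The most abundant group shows this. snmRNA:357, Msr-110, sinu, Sucb and bc10 filled the first 5 ranks as 1 group. Groups were chained from pair to pair, so its ends may differ by more than 5%: snmRNA:357 had a mean of 24768 CPM and bc10 of 22329 CPM. snmRNA:357 was at 25350.4, 31058, 17867 and 24798 CPM, and Sucb, a subunit of the succinyl-CoA ligase of the citric acid cycle, was at 25146, 30765, 17721 and 24561 CPM. Library 2 was highest and library 3 lowest for both. The protein of sinu is a claudin of septate junctions. Which of the 5 genes gave the counts cannot be told apart in this table.

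CG31705, CG14930 and CG43153 came next as a group, at 10192 ± 1059 CPM. CG9394 followed at rank 9 with 5996, 7044, 9063 and 5308 CPM, and CG1552 at rank 12 with 4367, 5752, 4709 and 4292 CPM. Both had counts of their own, in a strict sense used from here on: neither a neighbour nor a symbol whose position was 2 times theirs, or the reverse, differed by under 30%, and no distant symbol by under 1%. Over all 6992 symbols with a mean of at least 10 CPM, 350 (5.01%) met it. Library 3 was highest for CG9394 and library 2 for CG1552. CG9394 was above CG1552 within each of the 4 libraries, although their ranges over the libraries overlapped.

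Below these, groups led the list. Evi5 shared its counts with Gs2, which encodes a glutamine synthetase. bun, a TSC-22 family gene, shared them with CG5418 at 3649 ± 788 CPM. RpL22 was in a group with CG5273, CR44965 and CR42491, IscU, the iron-sulphur cluster scaffold, with CG8369 at 3434 ± 459.5 CPM, and Oda, the ornithine decarboxylase antizyme, with CG34232, scaRNA:PsiU2-55 and mir-988 at 2444 ± 222 CPM. Argk, arginine kinase, was at 2363 ± 306 CPM with CG5144. Treh, the trehalase that splits the main blood sugar of insects, was at 2343, 1729.9, 1934 and 2821 CPM, nearly the counts of Rbpn-5.

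Genes of transmitter and ion handling made up 8 of the top 300, of 49 listed in the table. Of the 49, 38 had a mean of at least 10 CPM, against 6992 of all 16666 symbols. Gs2 led them at rank 11, with 6382, 4602, 5327 and 6228 CPM. Gat, the GABA transporter, was at 2361, 1683, 1253 and 3306 CPM. Library 4 was highest and library 3 lowest for Gat, and the CV over the 4 libraries was 41.6%.

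Eaat1, the glutamate transporter, was at 1682, 1480.3, 930.4 and 2435 CPM, with counts of its own. nrv2, a beta subunit of the sodium-potassium pump that is widely used as a glial marker, was at 2034, 1322, 1591 and 2712 CPM, also with its own counts. For both of these library 4 was highest, as it was for Gat. The means were 2151 ± 895 CPM for Gat, 1915 ± 607 CPM for nrv2 and 1632 ± 623 CPM for Eaat1. Gat was above Eaat1 in each of the 4 libraries, whereas nrv2 was below Gat in libraries 1, 2 and 4 and above it in library 3, and changed places with Eaat1 too.

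Ekar, the gene of an eye-enriched kainate receptor, lay beside Gat in the table at 1948, 1402, 1002 and 2517 CPM. Its counts differed from those of Gat by 11.5%, above the 5% limit, and both had the same order of libraries. The carbonic anhydrase gene CAH1 was at 2785, 2808, 2963 and 2353 CPM. blot, a gene of the family of sodium-dependent neurotransmitter transporters, shared counts with noe at 1709 ± 271 CPM. Inx2 at 723 ± 179.6 CPM and ogre at 659 ± 45.9 CPM are the innexins that build glial gap junctions, and ogre held the counts of CG3040.

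Other genes of the list were lower. Atpalpha, the catalytic subunit of the sodium-potassium pump, was at 489 CPM, against 1915 CPM for nrv2, a comparison not scaled to length. Dat, which acetylates monoamines, was at 470.4 CPM with exactly the counts of DnaJ-60. e, the beta-alanyl-dopamine synthase ebony, was at 359.5 CPM with Nelf-A, and Irk1, an inwardly rectifying potassium channel, at 233 CPM. Gs1, the other glutamine synthetase, was at 8.56 CPM, and CAH2 had no adult count. Atpalpha, Irk1, Gs1 and CAH2 are examples chosen after their values were seen.

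**Figure D2:**
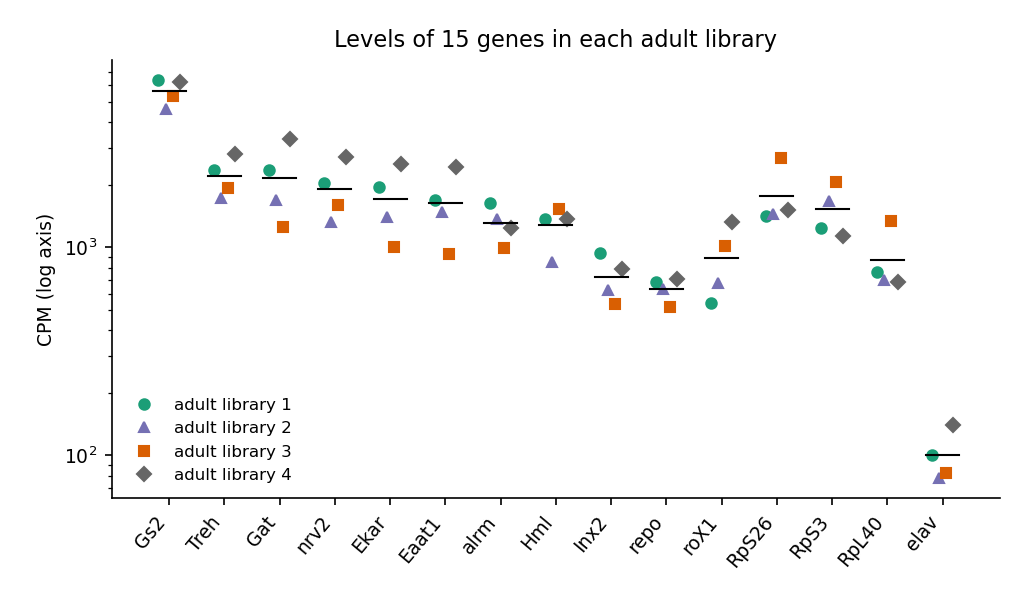
CPM (log axis) of 15 genes in each of the 4 adult libraries, 1 symbol per library and a bar at the mean. Gat, nrv2, Ekar and Eaat1 were highest in library 4, while RpS26, RpS3 and RpL40 were highest in library 3.

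Among the functional lists, ribosomal proteins had the most members in the top 300. They supplied 46 of the 300 symbols, 40 of them in neighbour groups, and 85 of the 92 in the table had a mean of at least 10 CPM. RpS26, a component of the small subunit with counts of its own, was at 1419, 1447, 2693 and 1519.6 CPM. RpL40, a ubiquitin fusion, was at 762, 695, 1338 and 683 CPM, and RpS19a at 738, 753, 1239 and 913 CPM. In all 3 genes library 3 was above the other libraries.

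Another 36 of the top 300 were snoRNA or scaRNA symbols, small RNAs that guide modification of ribosomal and spliceosomal RNA and are often encoded in introns of ribosomal protein genes. All 36 were in neighbour groups, and 31 shared counts with a ribosomal protein. RpL17 was in such a group with snoRNA:Psi28S-3436a and snoRNA:Psi28S-3436b at 1566 ± 275 CPM. The end of the top 300 fell inside another, since RpS7 and 5 snoRNA symbols that straddled the limit all had means of 643 CPM.

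Energy metabolism had fewer members. Of 99 symbols of the respiratory chain and ATP synthase, 5 were in the top 300, led by ATPsynC, a subunit of the ATP synthase rotor, at 1282 ± 278 CPM with 2 neighbours. Glycolysis had 3 of 18. Ald, the aldolase, had its own counts at 1234, 1321, 819.7 and 1218 CPM, and Eno, enolase, was at 1158, 1156, 1724 and 1047 CPM with the counts of Rim2. Library 3 was lowest for Ald and highest for Eno. Gapdh2 was at 717 ± 201 CPM.

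Matrix genes followed. Cg25C, which encodes a chain of collagen IV (now Col4a1), was at 1525 ± 208 CPM. The other collagen IV chain, vkg, was at 799 ± 62.0 CPM with CG3887 and Tfb5, and SPARC, a collagen-binding protein, at 719.6 ± 162 CPM with His2Av and mir-1012. mfas, midline fasciclin, was at 1365 ± 168 CPM in a group of 6. Of 57 adhesion and guidance genes, bdl, an immunoglobulin superfamily protein, was the one in the top 300, at 1056, 1131, 932 and 1313 CPM, with counts of its own.

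The remaining functional lists had few or no members in the top 300. Their counts stand beside a share of 300 in all 16666 symbols. Translation factors had 3 of 56, among them Ef1alpha48D at 1271 ± 332 CPM with MCPH1. Histones and chromatin proteins had 2 of 70, with His3.3B at 1433 ± 344 CPM in a group with fh. Antioxidant and metal-binding genes had 1 of 37, the metallothionein MtnA at 839 ± 78.6 CPM. The ubiquitin pathway had 2 of 54, with Usp16-45 at 1201 ± 122 CPM. Vesicle traffic had 1 of 146, with Rab27 at 720.0 ± 194 CPM in a group. The citric acid cycle had 2 of 19, Sucb and SdhC, both in groups, SdhC with RpS25 and ZnT86D. There was no top 300 member among lipid handling, vacuolar proton pump, mitochondrial ribosomal protein, chaperone, proteasome, actin, microtubule, circadian, growth factor, RNA-binding or autophagy genes, nor among transporters of amino acids and sugars.

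The lists leave most of the top 300 without a role here. In all, 77 of the 300 symbols were in a functional list, and 72 of the 150 separate rows had at least 1 such member. A further 109 bore CG or CR symbols in the table and were in no other list, and 68 named symbols were in none. Some CG symbols have a name in the current annotation, such as CG3940, now CAH7, at 1055 CPM with counts of its own. Below the top 300, the clock genes Pdp1 and tim were at 568 CPM and 407 CPM, the fatty acid synthase gene FASN1 at 322 CPM with toc, and the Sprouty gene sty, an inhibitor of receptor tyrosine kinase signalling, at 601 CPM.

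**Figure D3:**
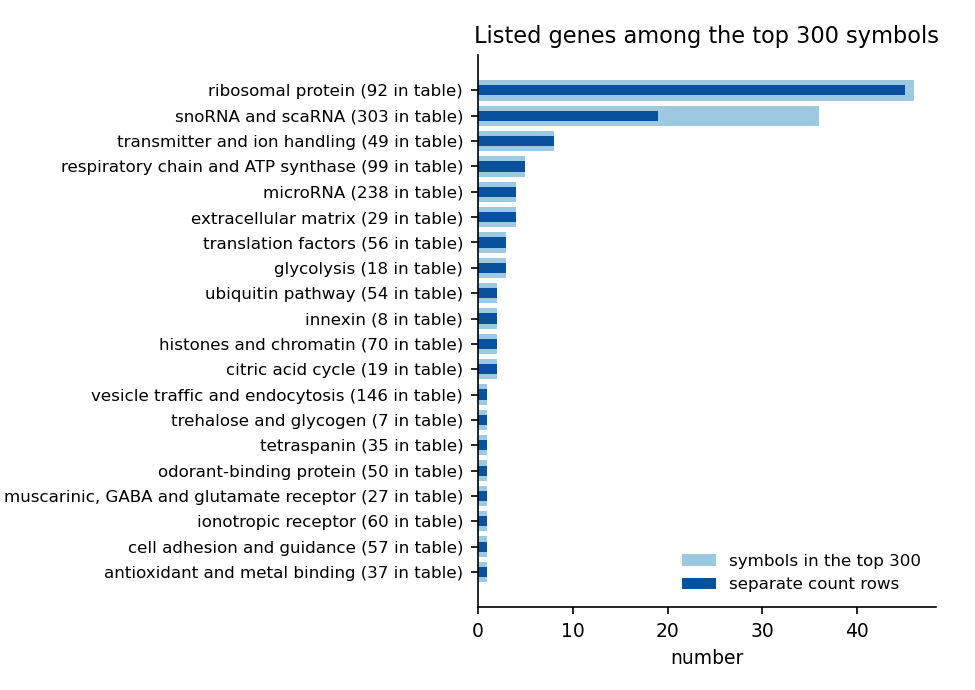
Number of members of each functional or family list in the top 300, as symbols (light bars) and as separate rows of counts after neighbours were joined (dark bars). Ribosomal proteins give 46 symbols in 45 rows, and the 36 snoRNA and scaRNA symbols fall into fewer rows. The lists of CG and CR symbols and lists with no member there are not drawn.

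In all, 25 of the top 300 symbols (8.33%) had counts of their own. Besides those above they include Hml, velo, a SUMO protease, sff, a kinase, tal-2A, a transcript of tiny open reading frames, Tet, a DNA and RNA modifying dioxygenase, and the corepressor gene Smr. roX1, a non-coding RNA of dosage compensation on the X chromosome, was at 539, 671, 1018 and 1331 CPM, a range of over 2-fold. CG31706 was the steadiest of the top 300, with 844, 827, 814 and 768 CPM and a CV of 4.01%.

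Symbols far apart in the table also shared counts, in a regular arrangement. Among symbols with at least 200 counts that lay more than 10 rows apart, 118 pairs differed by under 1%. Of these, 111 lay on the same chromosome arm, and in 108 the position of 1 symbol was close to 2 times that of the other, counted from the start of the arm in the Ensembl annotation (median ratio 1.999). That ratio was found in 0.212% of the pairs compared. The symbol at the lower position was on the plus strand in all 108 pairs, whereas the higher one was on the plus strand in 83 and on the minus strand in 25.

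CAH1 and Rat1, an exoribonuclease gene, are such a pair. Rat1, at the lower position, was at 2777, 2790.1, 2959 and 2357 CPM, which differed from CAH1 by 0.139%. Others chosen after their values were seen were Rabex-5 with RpL8 (0.263%), CG7759 with blw (0.182%) and Usp16-45 with CG15209 (0.110%), each with the lower symbol first. Among symbols with at least 30 counts, 272 of 3596 on the plus strand (7.56%) had counts within 5% of a symbol at 2 times their position, against 8 of 4263 on the minus strand (0.188%). In all, 26 of the top 300 were in a pair at that ratio, 12 of them as the lower symbol. The cause was not tested.

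The spread between libraries was wider than counting error. The median CV was 19.8% for ranks 1 to 100 and 24.5% for ranks 101 to 300, against medians of 2.45% and 3.45% from counting alone. It rose to 33.1% at ranks 1001 to 2000 and 69.1% at ranks 4001 to 6000. In 42 of the top 300 the highest library was at least 2-fold above the lowest, and 210 symbols were in the top 300 of each library ranked alone.

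Library 3 stood apart in the top 300. It was the highest library for 188 of the top 300 symbols, against 27, 45 and 40 for libraries 1, 2 and 4. Among 891 CG symbols with a mean of at least 50 CPM, 226, 207, 248 and 210 were highest in libraries 1 to 4. Over all 7933 symbols with at least 30 counts, Pearson's r of log2 of CPM with 1 added was 0.656 to 0.717 in pairs with library 3. It was 0.678 to 0.747 in the others, ranges that overlap. This is another measure, over mostly low symbols with a wide spread, so it cannot show whether library 3 was apart there. Across the top 300 symbols, which are not independent, Spearman's rho was 0.785 to 0.880 among libraries 1, 2 and 4, and 0.572 to 0.610 between each of them and library 3. Without library 3 the median CV of the top 300 was 12.8%, against 22.5% with it. Its total lay between those of libraries 2 and 1, and the labels set it apart in nothing but its number.

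Ribosomal proteins were among the symbols highest in it. Their summed CPM was 52209, 54994, 79840 and 53235, and 73 of the 83 symbols with at least 50 CPM were highest in library 3. When only the first symbol of each group in table order was kept, 45 such ribosomal protein symbols remained, and 42 were highest there. Those 45 are a subset set by table order, since the 92 listed symbols form 90 separate rows. Over the whole top 300, 188 of 300 symbols were highest in library 3. Respiratory chain genes were highest in library 3 in 34 of 59, a share near that of the top 300, with sums of 13199, 13831, 17022 and 12749 CPM.

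Transmitter and ion handling genes had another order. Their sums were 22987, 18645, 18857 and 24900.0 CPM, and 10, 3, 4 and 11 of 28 symbols were highest in libraries 1 to 4. The median deviation from the mean was 0.15 and 0.13 on the log2 scale in libraries 1 and 4, and -0.19 and -0.16 in libraries 2 and 3. Whether the make-up of the sorted pools, RNA quality or the preparation of library 3 had a part in these differences was not tested.

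**Figure D4:**
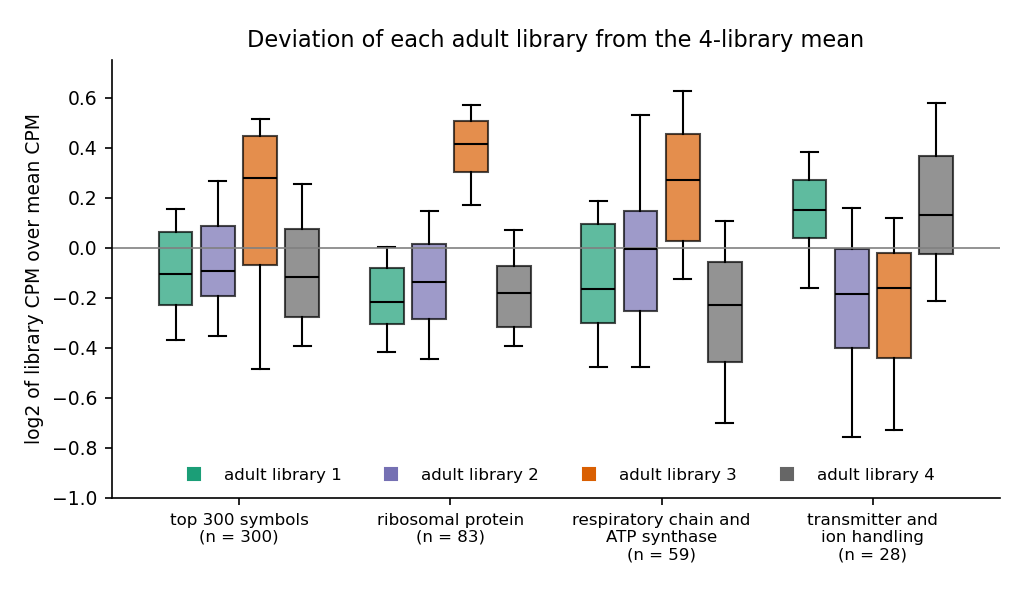
Deviation of each library from the mean of 4 libraries, as log2 of CPM over mean CPM with 1 CPM added to both, for symbols with a mean of at least 50 CPM; boxes give quartiles, the line the median and whiskers the 10th and 90th percentiles. Ribosomal proteins sit at a median of 0.42 in library 3 and below 0 in the others.

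Single genes departed further. CG3726 had the widest spread of the top 300, at 463, 1933, 138 and 578 CPM and a CV of 102%, with library 2 far above the rest. kel, which encodes a ring canal protein, was at 1228, 530.1, 699 and 1471 CPM with CG5758. CG43732 was at 687, 961, 293 and 1048 CPM and CG7029 at 2609, 1695, 879 and 2286 CPM, both lowest in library 3. CG7099, which held the counts of RpL24, was at 995, 1107, 2259.8 and 1127 CPM, and CG16957 at 697, 679, 1500.3 and 764 CPM, both highest in library 3.

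Some genes barely varied. CG16743 and CR45287, a pair at 2 times the position, were at 6.33% and 6.97% CV, ogre at 6.97%, blw, an ATP synthase subunit gene, at 8.10%, and Smr at 8.39%.

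Markers of other cell types were mostly below the top 300, as most symbols were. In bulk libraries, fewer cells of a type and less RNA per cell cannot be told apart. None of 19 neuronal markers was in the top 300, which hold 300 of 16666 symbols, and their sum was 525 to 748 CPM over the libraries. Of the 19, 12 had a mean of at least 10 CPM, against 6992 of all 16666 symbols. Counts in every library were found for 15 of the 19, against 6813 of the 16666. Appl was highest at 151 CPM, elav was at 101, 77.8, 82.2 and 139.8 CPM, and the synaptic genes nSyb and brp at 53.5 CPM and 46.7 CPM.

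Hemocyte markers were uneven. Hml, hemolectin, a clotting protein of blood cells, was at 1365, 847, 1527 and 1375 CPM, rank 87, with counts of its own. The 10 other hemocyte markers were at 45.7 CPM (crq) or less, with srp at 5.75 CPM, NimC1 at 1.76 CPM, He at 1.37 CPM, and eater, lz and PPO1 with no count. The summed level of the 11 markers was 981 to 1652 CPM, most of it Hml. Hml was lowest in library 2 and highest in library 3.

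Markers of other glia varied in level. The ensheathing glia markers summed to 137 to 215 CPM, led by CG9657 (rumpel) at 72.3 CPM, with the counts of CG14411, and Eaat2 at 69.0 CPM. The cortex glia markers summed to 418 to 503 CPM, mostly Cyp4g15 at 302 ± 30.0 CPM with its own counts, while wrapper was at 21.5 CPM. The surface glia markers summed to 871 to 1051 CPM, the highest of these 3 lists, most of it vkg at 799 CPM, in a group with CG3887 and Tfb5 and above repo at 632 CPM. Of the others, moody was at 24.9 CPM and Mdr65 had no count.

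Remaining lists were carried by 1 gene each. The muscle list summed to 234 to 477 CPM, with Act79B at 323 CPM and Mhc, sls and Tm2 with no count. The trachea list summed to 440.0 to 519 CPM, with vvl, a POU transcription factor gene, at 440.0, 489.8, 489.9 and 481 CPM and btl with none. The photoreceptor list summed to 627 to 936 CPM, with inaD at 609.6 CPM on the counts of RpL23, and trp, Arr1 and Arr2 with none. The fat body list stayed at 25.6 to 55.0 CPM, and in the neuroblast list (36.7 to 206 CPM) wor, ase and mira had none.

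Families of receptors and structural proteins were detected in part, and the members that were seldom had counts of their own, as was the case for most symbols. Over all 16666 symbols in the table, 6992 had a mean of at least 10 CPM and 4971 had no adult count. Of the 6992, 350 (5.01%) had counts of their own, so 0 among a few members is not read as a trait of a family. Of 60 odorant receptors, 35 had no count and 8 had a mean of at least 10 CPM, and 0 of these 8 had counts of their own. The most abundant, Or85a at 333 CPM, differed by 0.352% from Fas1, a cell adhesion gene at 2 times its position. Of 58 gustatory receptors 15 reached 10 CPM, led by Gr63a with the counts of Ubi-p63E at 550.1 CPM, and of 60 ionotropic receptors 6 did, led by Ir93a at 919 CPM with those of RpS30. In both families 0 of these had counts of their own.

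Several structural and secreted families were alike in this, but not all. Of the members that reached 10 CPM, 1 of 7 mucin and peritrophin genes and 1 of 3 lectin genes had counts of their own. Of 123 cuticle proteins, 82 had no count and 15 reached 10 CPM, with Lcp3 at 258 CPM matching Ef1beta to 0.332%. Of 24 Osiris genes 7 reached 10 CPM, and Osi5 at 219 CPM matched Desat1, a fatty acid desaturase gene, to 0.0510%. Chorion and vitelline membrane genes reached 10 CPM in 4 of 15, seminal fluid genes in 8 of 46, and Jonah and trypsin proteases in 4 of 29, each with 0 having their own counts. No Hox gene of 8 reached 10 CPM.

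Signalling families were detected at low levels. All 10 nicotinic receptor genes had adult counts, and 3 reached 10 CPM, with nAChRbeta1 highest at 69.5 CPM. Of 17 monoamine receptor genes 3 reached it, led by Dop1R1 at 41.4 CPM in a group, and of 42 neuropeptide genes 14 did, led by CCAP at 127 CPM. Among 27 muscarinic, GABA and glutamate receptor genes 9 reached it, with Ekar as the one in the top 300. In each of these families 0 of the members that reached 10 CPM had counts of their own.

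Detoxification and junction families held a few members with counts of their own, as did 350 of all 6992 symbols (5.01%) with a mean of at least 10 CPM. The numbers are too small to set these families apart from that share. Of 82 cytochrome P450 genes 24 reached 10 CPM, and Cyp4g15 and Cyp4d2 (15.0 CPM) had their own counts. Of 35 glutathione S-transferases 16 did, with GstE2 at 239, 212, 308 and 244 CPM on its own counts. Of 8 innexins, Inx2, ogre and Inx3 (96.8 CPM) were among the 4 that reached 10 CPM, and 3 had no count. Of these, Inx3 alone had counts of its own. In other families, 2 of 8 Dpr and DIP genes that reached 10 CPM had their own counts, as did 1 of 5 pickpocket channel genes. The same held for 1 of 1 Beat and Side genes, against 0 of 14 tetraspanins.

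**Figure D5:**
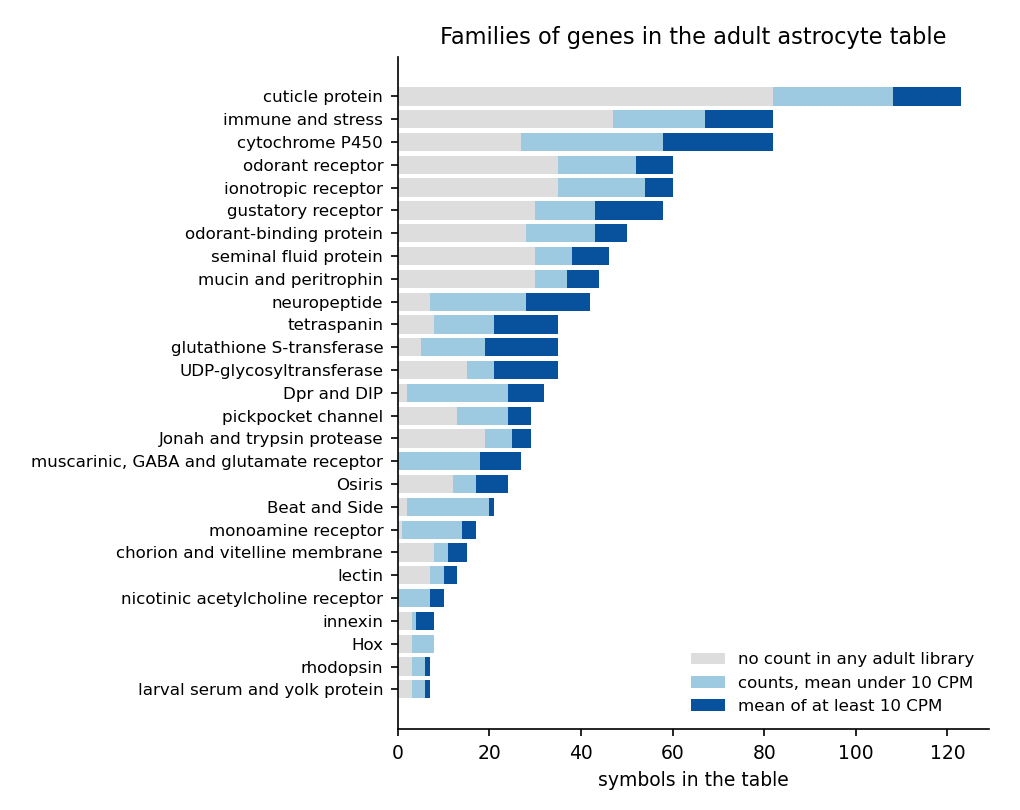
Symbols in the table for each gene family, split into those with no count in any adult library, those with counts and a mean under 10 CPM, and those with a mean of at least 10 CPM. RNA families, CG and CR symbols, and Stellate and male-specific transcripts are not drawn. Of the families drawn, cuticle proteins form the longest bar, with 82 of 123 at no count.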

How the data were processed

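Polyadenylated RNA of sorted astrocytes was sequenced as 3′ end libraries with a derivative of MARS-seq, per the labels' protocols. The table the authors deposited holds raw counts, whole numbers for 16666 symbols in 6 libraries, and 0 of its columns belonged to no sample. The tools named in the submitters' processing notes are HISAT 0.1.5, HOMER and bcl2fastq. How they were set, which build and annotation served, whether strand was used and how molecular identifiers were treated is not given in the sources used here.

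The 4 adult libraries (745129 to 1287871 counts) form 1 group, so values are descriptions with SD and n, and no test between groups was run. Single libraries were set apart by Dixon's criterion at the 95% level, the gap to the nearest library over the range of the 4. From the deposited counts, CPM was computed per library and symbols were ranked by the mean of 4 libraries, with Python 3.11.15, numpy 2.4.6 and pandas 2.3.3. Neighbours were linked where they lay at most 10 rows apart, had at least 30 counts each and differed by under 5% of their summed counts. The linking was run on simulated data with planted copies close enough to pass the 5% limit, so finding them was fixed in advance. This run cannot show how the rule does on symbols near 30 counts or on looser copies. Strand, order and position ratios come from the Ensembl BDGP6 annotation and a RefSeq gene table, in which 12618 symbols were current and 3896 synonyms. Coordinates are left out since the table's build is unknown.

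Genes were sorted into 72 lists (25 functional, 12 of cell type markers, 35 families), and 48 list entries had no match. The libraries, lists and rules were chosen with earlier results of these data known. The rule for named genes took the members of the 30 most abundant rows, the 3 most abundant members of each functional and marker list, the 8 highest and 8 lowest CVs of the top 300, the leading member of each family and the symbols around rank 300. Any other gene is an example picked with its values in view, and not every gene that meets the rule is described. Alternatives were each library left out, TMM and RLE scaling (edgeR 4.0.16, R 4.3.3), thinning to the shallowest library, other summaries and limits, 1 row per group of neighbours, and CPM over protein length.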

Additional observations from a re-analysis of the deposited data

Results flagged for a closer look

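Among 201 values examined over the 4 libraries (named genes with a mean of at least 10 CPM, list sums and library measures), 17 had 1 library set apart from the other 3 by Dixon's criterion, in which its gap to the nearest library is compared with the range of the 4. Chance sets apart about 5% of groups of independent values, and 8.46% were found. The named genes include some picked for high or low CV in these libraries, so 8.46% cannot be read as an excess. Library 3 was the one apart in 11 of the 17, library 4 in 5 and library 2 in 1. Many of these values share counts with each other, so they are not separate events.

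In library 3, the number of top 300 symbols that were highest there was 188, and the summed level of the ribosomal proteins was 79840 CPM, against 54994 CPM in the next library. RpS26 was at 2693 CPM there, RpS7 at 906 CPM and RpL40 at 1338 CPM. CG7099, on the counts of RpL24, was at 2260 CPM and CG16957 at 1500.3 CPM. Eno was at 1724 CPM and Tsf1, transferrin, at 751 CPM. The sum over transporters of amino acids, sugars and carboxylates was 1275 CPM there. CG5418, with bun, was low in library 3 at 2479 CPM.

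In library 4, Fas1 was at 463 CPM and Or85a, with its counts, at 459 CPM. 18SrRNA:CR45838 was at 705 CPM, against 327 CPM in the next library. CG34232, with Oda, was low there at 2112 CPM, and the cortex glia sum was low at 418 CPM. In library 2, ogre was low at 591 CPM.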

How the results depend on the processing

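Of 107 alternative values, 87 stayed within 1 SD (shares and the rank of alrm) or within 1.5 times (counts and the CV), and 20 moved. TMM and RLE scaling, median or pooled CPM and thinning moved none, and under TMM and RLE the top 300 held the same 300 symbols. The TMM and RLE factors were 0.983 to 1.01. Shares and groups were taken on unscaled counts, and a factor per library keeps the order within it. Most values under TMM and RLE could therefore hardly move, and their place among the 87 is no evidence of stability. Leaving out each library in turn gave a median CV of 12.8% to 25.6%, with 12.8% without library 3. With 1 row per group of neighbours, the first in the table, 4399 symbols were detected in every library. The top 300 took 56.9% and the top 10 took 13.4% of the counts. Of the ribosomal protein symbols so kept, a subset set by table order, 42 of 45 were highest in library 3. With symbols whose twin lay at 2 times their position left out too, an alternative chosen after seeing the data, these were 4210 symbols, 57.8% and 39 of 42. A mean of at least 1 CPM kept 10673 symbols. Divided by protein length, CPM gave a top 300 with 41.3% of the counts, 117 members of functional lists and alrm at rank 202, and 183 symbols were shared with the top 300 by CPM. The top 100 took 33.9% of the counts, with 81 symbols in neighbour groups, 58 in the top 100 of every library and 22 listed. The top 500 took 61.5%, with 379, 377 and 130. No paired analysis was possible because the 4 libraries form 1 group. At these depths a symbol with no count may stand at up to 0.724 CPM, and groups of neighbours limit what can be said of single genes.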
